A study of Macaca mulatta with 12 samples.

Results

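The genes described here make prostaglandins and leukotrienes or receive the prostaglandin E2 signal, and their RNA was measured in blood macrophages of rhesus macaques (Macaca mulatta). They were chosen by name: PTGS1, PTGS2, PTGES, TBXAS1, PTGER2 and PTGER4 for the prostaglandin arm, and ALOX5, ALOX5AP and LTA4H for the leukotriene arm. Of these 9 names, 8 matched a row among 32386 rows of the count table, 5 in the prostaglandin arm and 3 in the leukotriene arm. The identifier that the name table gives for PTGES has no row. Another row, ENSMMUG00000011822, is described in the authors' deposited tables as a prostaglandin E synthase. Its values are given as PTGES but are left out of every count of members.

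Both arms start from arachidonic acid, which phospholipase A2 enzymes cut from membrane phospholipids. The cyclooxygenases PTGS1 and PTGS2 turn it into prostaglandin H2, from which terminal synthases make prostaglandin E2 (PTGES) or thromboxane A2 (TBXAS1). In the other arm 5-lipoxygenase (ALOX5), helped by its activating protein ALOX5AP, makes leukotriene A4, and LTA4H turns that into leukotriene B4, an attractant of neutrophils. In macrophages PTGS2 is known as an inducible gene that bacterial lipopolysaccharide switches on, and prostaglandin E2 acts back on the cells through PTGER2 and PTGER4, which raise cyclic AMP.

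The macrophages were sorted from peripheral blood as CD14+CD16-CD163+ cells. The animals had been given back their own mobilized CD34+ cells after CRISPR/Cas9 treatment, as a model of clonal hematopoiesis, and the study's title names TET2. All 4 groups share that history, no group without it was analysed here, and the labels do not say what share of the sorted cells was edited. The 4 groups had 3 libraries each. Late ACT cells were sorted 19 months after transplantation and kept for 8 h with lipopolysaccharide (LPS) at 100 ng/ml and interferon-gamma at 20 ng/ml. Late CTL cells were sorted at 19 months and kept without stimulus. Early ACT and Early CTL cells were sorted at 4.5 months and kept with or without the same stimulus. One label field names LPS alone for the stimulated wells. Wells held 250000 cells. No label says that the replicates came from separate animals, so every p-value here describes variation from library to library, and that variation may be technical.

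Libraries held 3910680 to 12972505 counts. CD14 stood at 1376 to 2824 CPM (counts scaled to a common library total) and CD163 at 502 to 1338 CPM across all 12 libraries. TET2 was read in every one at 250 to 437 CPM. For each of these genes late and early libraries did not overlap. CD163 had 502 to 571 CPM in Late ACT and 577 to 607 CPM in Late CTL libraries. Early ACT libraries had 1079 to 1336 CPM of it and Early CTL libraries 1261 to 1338 CPM. CD14 was also lower in late cells, at most 1754 CPM against at least 1987 CPM in early cells. TET2 was higher, at least 415 CPM in late cells against at most 312 CPM in early ones. Library 1 of Early ACT stood apart from the other two: counts differed from theirs by 28.4 and 29.3 times the sampling variance (chi-square over degrees of freedom), against 2.82 between libraries 2 and 3. Among the other groups' pairs that ratio ran from 2.76 to 10.8. Its highest values there, 10.5 and 10.8, were those of Late CTL library 3 against libraries 1 and 2 of its group. Between those libraries 1 and 2 it was 3.345. Thinned to the same total of 3910680 counts, 17470 to 18698 genes were detected in late libraries and 13605 to 13966 in early ones. This difference in detected genes moves with every late over early comparison below, and its part in them was not tested. Levels below are CPM of the library total. Log2 fold changes, their standard errors (SE) and adjusted p-values come from edgeR's quasi-likelihood test with TMM scaling and Benjamini-Hochberg adjustment over 11826 genes, with a threshold of 0.05.

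PTGS2, the inducible cyclooxygenase, was the one member that was higher in late cells, with and without stimulus. PTGS2 (ENSMMUG00000016857, Mmul_8.0.1 chromosome 1, 180538285 to 180548777) had 10990, 9772 and 10024 CPM in the Late ACT libraries. The Late CTL libraries had 8382, 8577 and 7223 CPM. The Early ACT libraries had 3120, 5676 and 5592 CPM, and the Early CTL libraries had 1665, 1716 and 1620 CPM. The groups did not overlap: every late library, stimulated or not, lay above every early one. The mean CPM of unstimulated late cells was 1.68 times that of stimulated early cells. In Late ACT library 1 the gene took 1.10% of all counts, against 0.162% to 0.172% in the Early CTL libraries. In bulk RNA, fewer cells of a type and less RNA per cell cannot be told apart.

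By edgeR, PTGS2 rose 5.16-fold in Late CTL over Early CTL cells (log2 fold change 2.37 ± 0.15 SE, adjusted p = 1.04e-11). In Late ACT over Early ACT cells it rose 1.94-fold (log2 fold change 0.95 ± 0.15 SE, adjusted p = 1.76e-05). Both increases kept their side of the threshold in all 20 alternative settings tried, at log2 fold changes of 2.28 to 2.49 and of 0.71 to 1.10. Of the 11826 genes tested, 20.9% were higher in Late CTL than in Early CTL cells and 19.1% were higher in Late ACT than in Early ACT cells. PTGS2 was 1 of 7 members tested in each comparison.

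**Figure D1:**
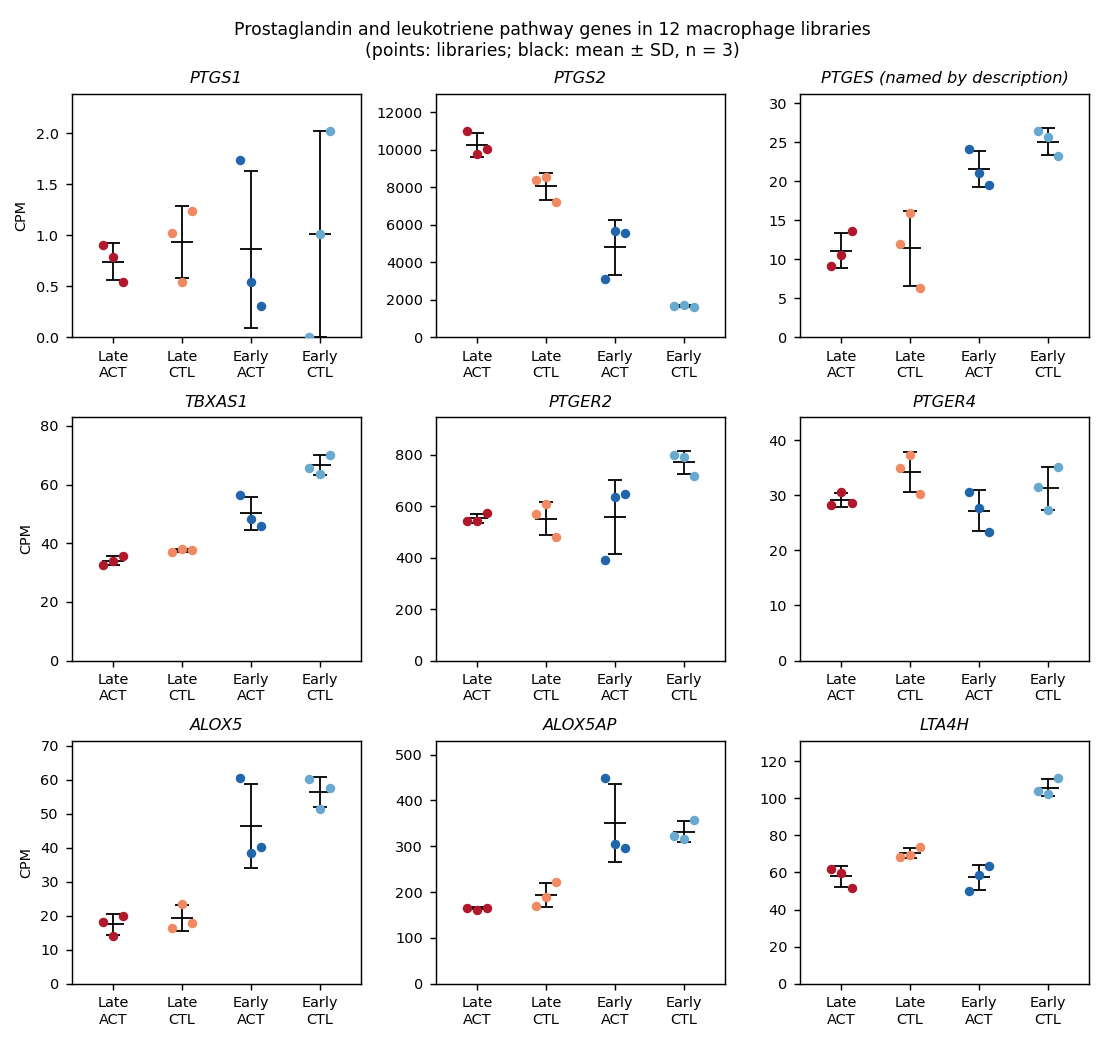
CPM of the 9 genes in each of the 12 libraries, with 1 panel per gene and its own vertical axis; points are libraries, bars are group means and whiskers are 1 SD (n = 3), and groups run Late ACT, Late CTL, Early ACT, Early CTL from left to right. PTGS2 averages 10262 ± 643 CPM in Late ACT, the highest group, and 1667 ± 48 CPM in Early CTL, the lowest, while ALOX5 and ALOX5AP sit lower in both late groups.

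PTGS1, the constitutive cyclooxygenase and the main one of platelets, was near the limit of detection. It had 7, 6 and 5 reads in Late ACT, 4, 4 and 8 in Late CTL, 8, 7 and 4 in Early ACT, and 0, 10 and 22 in Early CTL. No library exceeded 2.02 CPM, and the 0 in Early CTL library 1 allows up to 0.480 CPM (3 counts; counting error only, since reads had no molecular identifiers). The gene was too low to be tested beside the others, and a difference was not detectable at this depth.

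The terminal synthases were lower in late cells. PTGES, the inducible prostaglandin E synthase, had 9.15, 10.6 and 13.6 CPM in Late ACT and 12.0, 15.9 and 6.32 CPM in Late CTL, against 24.1, 21.1 and 19.5 CPM in Early ACT and 26.4, 25.7 and 23.2 CPM in Early CTL. Every late library lay under every early one. By edgeR its log2 fold change was -1.04 ± 0.23 SE in unstimulated cells (adjusted p = 0.000894) and -1.09 ± 0.23 SE in stimulated cells (adjusted p = 0.00054). PTGS2 and PTGES, which work in sequence toward prostaglandin E2, thus moved in opposite directions with time. The coordinates of the PTGES row are chromosome 15, 8962807 to 8979595.

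TBXAS1, the thromboxane synthase, had 32.5, 34.1 and 35.6 CPM in Late ACT and 37.1, 38.0 and 37.6 CPM in Late CTL. Early ACT libraries had 56.5, 48.3 and 45.9 CPM, and Early CTL libraries had 65.8, 63.6 and 70.2 CPM. Its 4 groups did not overlap, and both late groups were below both early ones. It fell by 0.73 ± 0.13 SE on the log2 scale without stimulus (edgeR adjusted p = 0.000121) and by 0.70 ± 0.13 SE with it (adjusted p = 0.000221). TBXAS1 (ENSMMUG00000004222) lies on chromosome 3 at 166215424 to 166406359.

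Platelets carry TBXAS1 and PTGS1. The platelet markers with a row (7 of 9) summed to 355 to 364 CPM in Late ACT and 358 to 426 CPM in Late CTL, against 424 to 554 CPM in Early ACT and 495 to 547 CPM in Early CTL. Most of that sum was TUBB1 and TREML1, while GP9, GP6, GP1BA and ITGA2B stayed under 1 CPM in every group mean. The mean was lower in late cells for 2 of the 7 without stimulus (TUBB1 and TREML1) and for 3 with it. PPBP averaged 1.83 CPM in Late CTL and 1.15 CPM in Early CTL, and ITGA2B, GP9 and GP1BA also had the higher mean in Late CTL. The part of platelet RNA in the TBXAS1 difference was not tested.

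Of the prostaglandin E2 receptors among the members, PTGER2 was lower in unstimulated late cells and PTGER4 was called in no comparison. PTGER3, a prostaglandin E2 receptor outside the members, went the other way in unstimulated cells. It was higher in Late CTL than in Early CTL (log2 fold change 1.24 ± 0.45 SE, edgeR adjusted p = 0.0288), with every group mean under 5 CPM. PTGER2 (ENSMMUG00000000023, chromosome 7, 114234437 to 114250936) had 542, 542 and 573 CPM in Late ACT, 568, 607 and 479 CPM in Late CTL, 391, 636 and 646 CPM in Early ACT, and 800, 792 and 719 CPM in Early CTL. Late CTL lay below Early CTL, while Late ACT and Early ACT overlapped, with Early ACT library 1 the lowest. PTGER2 fell by 0.39 ± 0.14 SE on the log2 scale in Late CTL against Early CTL (edgeR adjusted p = 0.0262), which is the weakest of the member calls. It missed the threshold in 6 of 20 alternatives, among them without Early CTL library 1 (adjusted p = 0.0643), without Early CTL library 2 (0.0672) and without Late CTL library 3 (0.106). The other 14 kept the call, among them without Early ACT library 1 (log2 fold change -0.41, adjusted p = 7.24e-06). In stimulated cells its log2 fold change was -0.16 ± 0.14 SE (adjusted p = 0.364). Without Early ACT library 1 it was -0.37 (adjusted p = 0.000234).

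PTGER4 had group means of 29.2 ± 1.24 CPM in Late ACT, 34.2 ± 3.66 CPM in Late CTL, 27.2 ± 3.71 CPM in Early ACT and 31.3 ± 3.90 CPM in Early CTL (SD, n = 3 each). Neighbouring groups in the order of levels all overlapped. The edgeR log2 fold change was 0.22 ± 0.16 SE (adjusted p = 0.279) in late over early unstimulated cells and -0.04 ± 0.16 SE (adjusted p = 0.876) in late over early stimulated cells.

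All 3 leukotriene members were lower in late unstimulated cells, and ALOX5 and ALOX5AP were lower in late stimulated cells as well. ALOX5, the 5-lipoxygenase itself, had 18.2, 14.1 and 20.1 CPM in Late ACT and 16.4, 23.5 and 17.9 CPM in Late CTL, against 60.6, 38.5 and 40.3 CPM in Early ACT and 60.2, 51.5 and 57.6 CPM in Early CTL. The highest late library stayed under the lowest early one. It was 2.71-fold lower in Late CTL than in Early CTL (log2 fold change -1.44 ± 0.19 SE, edgeR adjusted p = 1.6e-06). In Late ACT against Early ACT the log2 fold change was -1.54 ± 0.19 SE (adjusted p = 7.05e-07). ALOX5 (ENSMMUG00000013434) lies on chromosome 9 at 40947964 to 41008660.

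ALOX5AP, the membrane protein that hands arachidonic acid to ALOX5, had 166, 162 and 166 CPM in Late ACT and 170, 189 and 221 CPM in Late CTL. Early ACT libraries had 449, 306 and 296 CPM, and Early CTL libraries had 322, 317 and 357 CPM. Late and early libraries did not overlap with or without stimulus, and Early ACT library 1 was the highest of all. The log2 fold change was -0.68 ± 0.14 SE in unstimulated cells (edgeR adjusted p = 0.000489) and -1.24 ± 0.14 SE in stimulated cells (adjusted p = 3.6e-07). ALOX5AP (ENSMMUG00000005572) lies on chromosome 17 at 10283913 to 10329344.

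LTA4H, the hydrolase that completes leukotriene B4, had 62.1, 59.8 and 51.6 CPM in Late ACT and 68.5, 69.7 and 73.7 CPM in Late CTL, against 50.2, 58.6 and 63.6 CPM in Early ACT and 104, 102 and 111 CPM in Early CTL. Early CTL stood above the other 3 groups, and Late ACT and Early ACT overlapped. LTA4H fell by 0.49 ± 0.13 SE on the log2 scale in Late CTL against Early CTL (edgeR adjusted p = 0.00298). In stimulated cells the late over early log2 fold change was -0.15 ± 0.13 SE (adjusted p = 0.373). LTA4H (ENSMMUG00000009312) lies on chromosome 11 at 95849648 to 95893360.

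Counting over the 7 members tested, 1 was higher and 5 were lower in Late CTL than in Early CTL, beside 19.8% of all genes called lower. In stimulated cells 1 was higher and 3 were lower, beside 19.7% of all genes called lower. The 3 leukotriene members had median log2 fold changes of -0.68 without stimulus and -1.24 with it. The 4 tested prostaglandin members had medians of -0.09 and -0.10, and all genes had medians of 0.02 and 0.05. The authors' deposited table of unstimulated cells lists PTGS2 at a log2 fold change of 2.38 and ALOX5 at -1.43, and it holds all 6 members called here. Their deposited table of stimulated cells lists PTGS2 at 0.96 and ALOX5 at -1.55, and does not list PTGER2 or LTA4H.

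Markers of other cells that use this pathway differed between times too. Neutrophils, rich in ALOX5 and its activating protein, were gauged by 8 markers with a row, which summed to 327 to 403 CPM in Late ACT and 371 to 425 CPM in Late CTL, against 627 to 682 CPM in Early ACT and 709 to 755 CPM in Early CTL. The sort kept CD14+CD16-CD163+ cells. CSF3R and CAMP made up most of that sum. They, CXCR2 and AZU1, 4 of the 8, had a lower mean in late cells. CSF3R averaged 315 CPM in Late CTL and 581 CPM in Early CTL, and CAMP 75.9 and 137 CPM. CXCR2 averaged 3.79 CPM in Late CTL and 6.60 CPM in Early CTL, and AZU1 3.98 and 10.4 CPM. The other 4 had a higher mean in late cells, with group means of at most 2.845 CPM. MMP8 averaged 2.40 CPM in Late CTL and 0.66 CPM in Early CTL, and LTF 1.41 CPM in Late CTL and 0.061 CPM in Early CTL. ELANE averaged 0.847 CPM in Late CTL and 0.034 CPM in Early CTL, and MPO 1.77 CPM in Late CTL and 1.44 CPM in Early CTL. The CD14 monocyte and macrophage list was lower in late cells as well, with 5964 to 6126 CPM in Late ACT and 6460 to 7042 CPM in Late CTL, against 9477 to 10012 CPM in Early ACT and 12449 to 12875 CPM in Early CTL. Markers of eosinophils, basophils and mast cells (5 of 9 with a row) summed to at most 4.86 CPM in any library. Their sums were higher in late cells, 1.83 to 4.13 CPM in Late ACT and 2.62 to 4.86 CPM in Late CTL. Early libraries had at most 0.077 CPM in Early ACT and 0.367 CPM in Early CTL. All 5 averaged under 1 CPM over the 12 libraries. The part of these cells in the leukotriene differences was not tested.

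**Figure D2:**
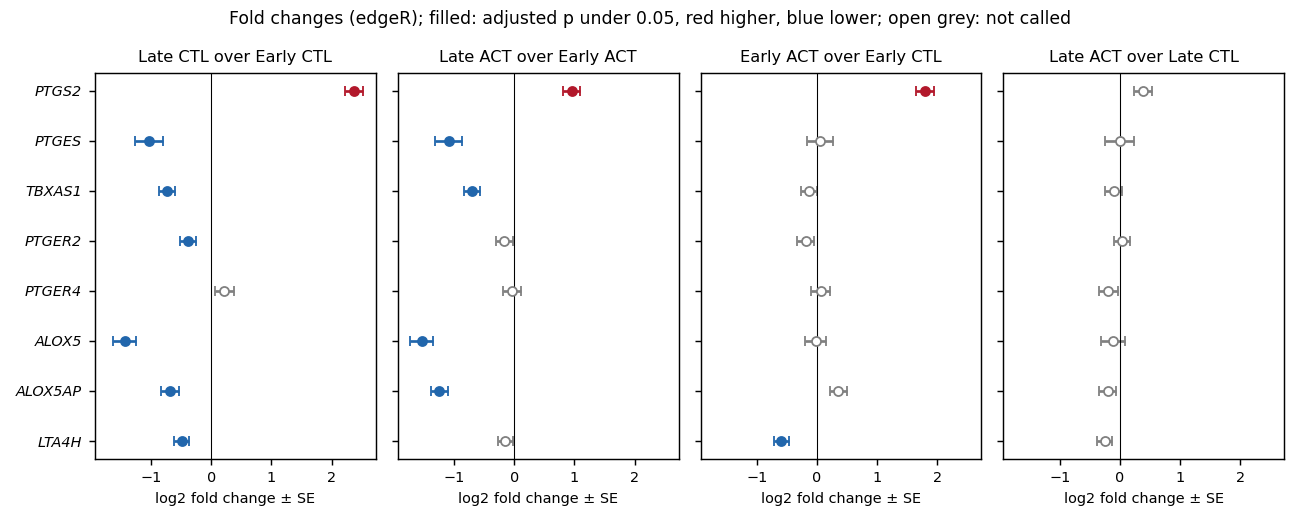
Log2 fold changes (edgeR, points) with 1 SE (bars) for the 8 tested genes, PTGES included, in 4 comparisons: Late over Early in unstimulated and in stimulated cells, and ACT over CTL in late and in early cells. PTGS2 lies right of 0 in every comparison, at 2.37 in unstimulated cells, and the leukotriene genes lie left of 0 in late over early cells.

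Stimulation asked which members answer LPS and interferon-gamma within 8 h. In early cells PTGS2 rose 3.48-fold (log2 fold change 1.80 ± 0.15 SE, edgeR adjusted p = 3.15e-09), and LTA4H fell by 0.60 ± 0.12 SE on the log2 scale (adjusted p = 0.00259). These were 1 of 7 members higher and 1 lower in Early ACT than in Early CTL, beside 4.57% of all genes called higher and 2.66% called lower. ALOX5AP had 0.36 ± 0.14 SE (adjusted p = 0.139), and without Early ACT library 1 it had 0.12. PTGES, TBXAS1, PTGER2, PTGER4 and ALOX5 had log2 fold changes of 0.05, -0.14, -0.19, 0.06 and -0.02, none of them called. With scaling by library totals alone, TBXAS1 at -0.42 (adjusted p = 0.0234) and PTGER2 at -0.46 (adjusted p = 0.0234) passed as well. In that setting 2413 of all 11826 genes passed.

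In late cells no member passed, and 0 of all 11826 genes did (0% called). DESeq2 called 0 members and 15 genes. By edgeR at an unadjusted p under 0.05 there were 1 member and 527 of the 11826 genes. That share of genes is below the 0.05 that such a cutoff would pass without any effect. PTGS2 was the member concerned. Its libraries did not overlap between Late ACT and Late CTL, and its log2 fold change was 0.38 ± 0.15 SE (edgeR adjusted p = 0.999). It passed the threshold when only the Late ACT and Late CTL libraries were fitted (adjusted p = 0.0456) and when Early ACT library 1 was left out (adjusted p = 0.000371).

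The response of PTGS2 to stimulation was smaller in late than in early cells. The interaction term, late response minus early response, was -1.41 ± 0.21 SE on the log2 scale (edgeR adjusted p = 0.000132), and -1.64 without Early ACT library 1. PTGS2 was the 1 of 7 members whose difference in response passed the threshold, beside 1.23% of all genes with a lower response in late cells. ALOX5AP had -0.56 ± 0.20 SE (adjusted p = 0.229).

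The steps around the members were read from 58 further genes of the pathway, of which 49 had a row and 36 were tested. In Late CTL against Early CTL, 9 were higher and 15 lower, beside 20.9% and 19.8% of all genes. In Late ACT against Early ACT, 5 were higher and 13 lower, beside 19.1% and 19.7% of all genes. The counts of higher genes are near or below those shares. Stimulation raised 3 in early cells (ACSL5, PTGDR and FPR2), beside 4.57% of all genes, and none passed in late cells by edgeR. With library totals alone 5 of the 36 passed in early cells, and with DESeq2 6 of 33. The ACSL5 response, 0.46 on the log2 scale, was lost with library totals alone (0.18, adjusted p = 0.194) and without Early CTL library 2 (0.43, adjusted p = 0.055). Without Early ACT library 1 these counts were 10 higher and 16 lower, 8 higher and 12 lower, 5 higher and 1 lower, and again none. Over all 12565 genes tested in that setting, 6148, 4652, 1554 and 29 were called in either direction. Of the 12 genes of arachidonate release and re-uptake, 5 were higher and 6 lower without stimulus, and 2 were higher and 5 lower with it, beside the same shares of all genes.

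PLA2G4A, the cytosolic phospholipase A2 that frees arachidonic acid, rose in late cells. It had 19.0, 21.4 and 21.7 CPM in Late ACT and 22.2, 21.2 and 16.0 CPM in Late CTL, against 4.78, 8.48 and 9.43 CPM in Early ACT and 3.68, 6.70 and 9.90 CPM in Early CTL. All late libraries lay above all early ones. Its edgeR log2 fold change was 1.58 ± 0.26 SE without stimulus (adjusted p = 3.23e-05) and 1.24 ± 0.25 SE with it (adjusted p = 0.0004). PLA2G4A lies 144 kb from PTGS2 on chromosome 1, which rose in the same comparisons.

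Other genes listed under arachidonate release and re-uptake went both ways. The acyl-CoA synthetase ACSL3 averaged 172 ± 1.40 CPM in Late CTL and 96.4 ± 14.8 CPM in Early CTL (SD, n = 3 each), a log2 fold change of 0.93 (edgeR adjusted p = 3.4e-05). ACSL3 was also higher in stimulated cells (0.53). ACSL5 and PLA2G4C were higher without stimulus (0.58 and 0.77), and ACSL1 was lower without and with stimulus (-0.66 and -0.69). MBOAT7, which puts arachidonic acid into phosphatidylinositol, averaged 4.73 ± 0.144 CPM in Late ACT and 13.5 ± 2.95 CPM in Early ACT, a log2 fold change of -1.63 (edgeR adjusted p = 2.39e-06), and it was lower in unstimulated cells too (adjusted p = 0.00045). LPCAT3 was lower without stimulus (-1.13). PLA2G4C missed the threshold without Early CTL library 1 or 3 or Late CTL library 1, with adjusted p up to 0.0719 over the alternatives. PLA2G7, PLA2G4B and ANXA1, the annexin that restrains phospholipase A2, were lower in both comparisons, at -0.46 to -0.71. PLA2G4B missed the threshold in unstimulated cells without Late CTL library 3 (adjusted p = 0.0638). In stimulated cells it missed the threshold without Late ACT library 1 (0.0711) and with library totals alone (0.0751).

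Of 4 other prostanoid synthases, 3 were lower in unstimulated late cells, beside 19.8% of all genes. PTGES2, another prostaglandin E synthase, averaged 3.18 ± 1.87 CPM in Late CTL and 10.9 ± 1.25 CPM in Early CTL (SD, n = 3 each; log2 fold change -1.59 ± 0.31 SE, edgeR adjusted p = 0.000216). AKR1B1 and CBR1 had log2 fold changes of -0.61 and -1.11. The CBR1 call was lost in 5 of 20 alternatives, among them without Early CTL library 1 or 3 or Late CTL library 2 (adjusted p up to 0.149). In stimulated cells AKR1B1 was lower (-0.78), while PTGES3 was higher (0.56). Of 3 transport and breakdown genes, the exporter ABCC4 was higher in stimulated cells (0.37, adjusted p = 0.0493), a call lost in 16 of 20 alternatives, each of the 12 left-out libraries among them (adjusted p up to 0.229).

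Of 4 other prostanoid receptors, 2 were higher and 0 lower in unstimulated late cells, beside 20.9% and 19.8% of all genes. They were PTGER3, under 5 CPM, and PTGDR. None was called in late over early stimulated cells. PTGDR, a receptor for prostaglandin D2, had 117, 109 and 122 CPM in Late ACT and 109, 102 and 101 CPM in Late CTL. It had 81.3, 101 and 113 CPM in Early ACT and 42.0, 37.7 and 33.7 CPM in Early CTL. Early CTL stood below the other 3 groups. PTGDR rose in Late CTL over Early CTL (1.56 ± 0.13 SE on the log2 scale, edgeR adjusted p = 1.63e-09) and in Early ACT over Early CTL (1.67 ± 0.13 SE, adjusted p = 1.21e-09). Its response to stimulation was smaller in late cells (interaction -1.48 ± 0.18 SE, adjusted p = 9.25e-06). It was the 1 gene of 36 with such a call, beside 1.23% of all genes. Without Early ACT library 1 there were 4, beside 546 of all 12565 genes called in either direction. With DESeq2 there were 3 of 26, beside 312 of all 7681 genes. PTGDR (ENSMMUG00000000024) lies 26.2 kb from PTGER2 on chromosome 7, which was lower in Late CTL than in Early CTL.

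Of 9 other leukotriene and lipoxygenase genes, 1 was higher and 5 lower without stimulus, beside 20.9% and 19.8% of all genes. With stimulus 1 was higher and 6 were lower, beside 19.1% and 19.7%. The 1 higher gene was ALOX15, a lipoxygenase under 5 CPM. COTL1, a protein that binds 5-lipoxygenase, averaged 307 ± 13.8 CPM in Late CTL and 633 ± 15.8 CPM in Early CTL (SD, n = 3 each; log2 fold change -0.95, edgeR adjusted p = 1.23e-07). In stimulated cells COTL1 was at -0.88. MGST3, GGT1 (which trims leukotriene C4) and DPEP2 (which trims leukotriene D4) were lower in both comparisons: -0.91, -1.06 and -0.96 without stimulus, and -1.34, -1.50 and -1.01 with it. GPX4 was lower in both (-0.46 and -0.54), and MGST2 was lower in stimulated cells (-0.94). Of 4 receptors, LTB4R, which binds leukotriene B4, was lower at -0.81 without stimulus and -1.15 with it, and FPR2, which binds lipoxin A4, was higher without stimulus (0.48) and with stimulation in early cells (0.58). The unstimulated call of LTB4R was lost in 6 of 20 alternatives, among them without Early CTL library 2 or 3 or Late CTL library 2 (adjusted p up to 0.162). That of GPX4 was lost in 7, among them without Early CTL library 2 or 3 or Late CTL library 1 or 2 (up to 0.0998). Upper-quartile scaling was another of these 7 (0.119). In stimulated cells GPX4 missed the threshold with library totals alone (0.0584) and when thinned (0.0631), and MGST2 missed it when thinned (0.0542). DPEP2 missed the threshold in unstimulated cells without Late CTL library 2 (0.0548) and when thinned (0.0738). In stimulated cells DPEP2 missed it without Early ACT library 1 or Late ACT library 2 (up to 0.112), and with only the groups compared (0.0531). FPR2 missed the threshold in unstimulated cells without Early CTL library 1 or Late CTL library 3 (up to 0.17). Its early response missed it without any 1 of the Early CTL libraries (up to 0.104) and with library totals alone (0.158).

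**Figure D3:**
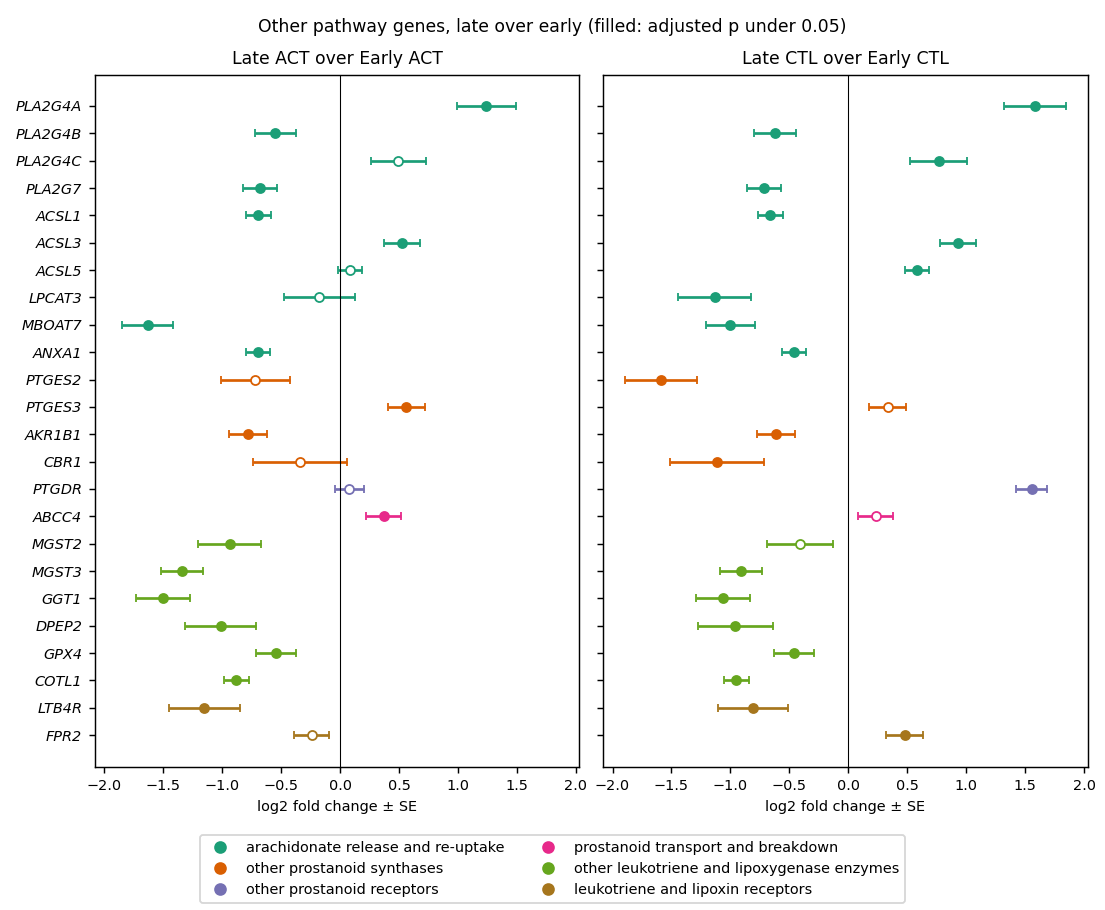
Log2 fold changes (edgeR, points) with 1 SE (bars) for 24 further pathway genes, Late ACT over Early ACT on the left and Late CTL over Early CTL on the right. PLA2G4A lies right of 0 in both, and MBOAT7, GGT1, MGST3, COTL1 and LTB4R lie left of 0 in both.

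Several genes had levels that followed PTGS2 across the 12 libraries. Among 5486 genes with a name and a mean of at least 10 CPM, the most alike by Pearson's r of log2(CPM + 1) were CXCL2 (0.992), IL1A (0.991), MMP1 (0.990), CCL2 (0.989) and CD200 (0.987). CXCL2 averaged 12004 CPM in Late ACT, 10758 in Late CTL, 6724 in Early ACT and 2039 in Early CTL, in the same order as PTGS2. The values share libraries and total counts, so they are a description. The genes most like PTGES were ARHGEF1, PPP6R1, TSC2, SBF1 and ADAM8 (r of 0.968 to 0.984), and those most like ALOX5AP were SERPINA1, KCNMB1, MTF1, HK1 and IFI35 (0.985 to 0.992).

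**Figure D4:**
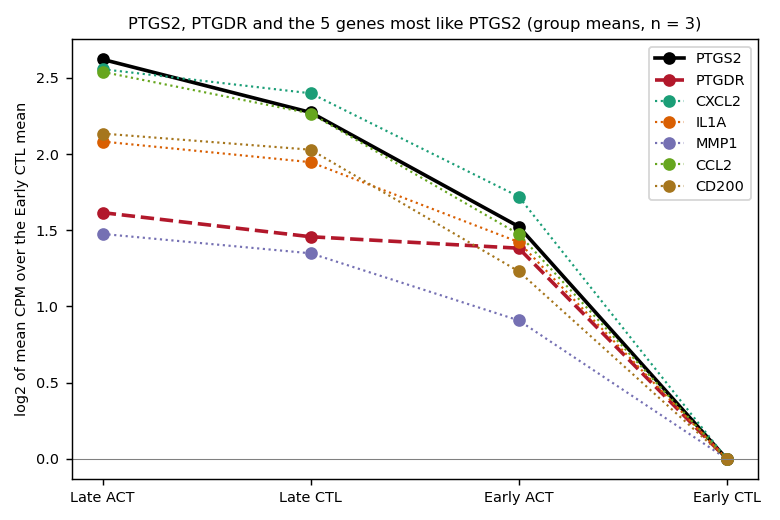
Mean CPM of PTGS2, of PTGDR and of the 5 genes most like PTGS2 (CXCL2, IL1A, MMP1, CCL2, CD200) in each group, on a log2 axis relative to the Early CTL mean. PTGS2 and the 5 genes descend from Late ACT to Early CTL, and PTGDR holds a like level in 3 groups, above Early CTL.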

How the data were processed

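SMART-Seq v4 cDNA was prepared as Nextera XT libraries, per the labels' protocols; without strand, antisense reads cannot be told apart. The deposited table holds raw counts per gene. Its build is Mmul_8.0.1, per the submitters' processing notes; the sources used here name no aligner or counter. The authors' deposited tables list log2 fold changes of late over early cells, a mean normalized signal, a test score and p-values, for genes with adjusted p under 0.05 alone, with the tool not stated.

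Counts of 12 libraries were fitted with edgeR 4.0.16 in R 4.3.3 (limma 3.58.1): robust quasi-likelihood, filterByExpr, TMM, 1 coefficient per group, Benjamini-Hochberg adjustment over 11826 genes. The test was also run on simulated data in which all libraries shared a mean profile and spread, apart from genes set to differ. Such data hold no outlying library and no difference in detected genes between times, so they do not check the test under those features. Names came from the authors' tables and a name table by Ensembl identifier; lists, named-gene rules and members were chosen with earlier results of these data known. Named further genes passed in at least 1 comparison and had a group mean of at least 5 CPM. Same-numbered libraries of Late CTL and Early CTL all had correlated deviations above 0.1 (0.155, 0.133, 0.374). Differently numbered libraries passed 0.1 there too: Late CTL 1 with Early CTL 2 (0.106) and Late CTL 2 with Early CTL 1 (0.113). In the other comparisons 1 same-numbered pair passed 0.1 (Early ACT 2 with Early CTL 2, 0.158) and the rest did not. Differently numbered pairs passed it there as well, among them Late ACT 1 with Early ACT 3 (0.285). No label states a pairing, and these values do not settle whether the numbers pair. DESeq2 1.42.0, other scalings, a replicate block, thinning to 3910680 counts and leaving out each library were tried.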

Additional observations from a re-analysis of the deposited data

Results flagged for a closer look

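The response of PTGS2 to stimulation differed between late and early cells by a test of the difference itself. The difference was -1.41 on the log2 scale (late response minus early response; edgeR adjusted p = 0.000132), from responses of 0.38 in late and 1.80 in early cells. It ran from -1.64 to -1.18 over the 19 alternatives, and the threshold was passed in each of them.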

How the results depend on the processing

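Of 259 alternative results for the 13 member calls, 253 kept their call, 6 lost it and 0 reversed. All 6 lost were PTGER2 in unstimulated cells (upper-quartile scaling 0.121, DESeq2 0.0512, thinned 0.057, and 3 left-out libraries 0.0643, 0.0672 and 0.106). Some left-out libraries belong to neither group of a comparison. Leaving those out changes mainly the shared spread, so such alternatives check a call less. The number of members called by stimulation in early cells was 4 with library totals alone against 2, and in late cells 1 with only the groups compared against 0, with a range of 0 to 1 over left-out libraries. The replicate block left every member call as it was, with 6 members called in unstimulated late over early cells. Counts of genes called of all tested that moved by over 1.5 times were, for early stimulation, 2413 with library totals alone, 503 with only the groups compared and 464 to 1554 over left-out libraries (855); for late stimulation, 2 with upper-quartile scaling, 5 without a filter, 15 with DESeq2, 10 with only the groups compared and up to 29 (0); and for the interaction, 312 with DESeq2 and 95 to 546 (167). Without Early ACT library 1 these counts were 1554, 29 and 546. Reversed values concern differences that were not called. In late over early stimulated cells PTGER4 gave 0.066 (upper-quartile), 0.12 (totals), 0.018 (thinned) and -0.17 to 0.038 over left-out libraries, and LTA4H gave 0.0048 (totals). In early stimulation PTGES gave -0.23 (totals) and -0.038 to 0.13, PTGER2 -0.30 to 0, PTGER4 -0.22 (totals) and -0.036 to 0.17, and ALOX5 0.047 (thinned) and -0.25 to 0.11. In late stimulation PTGES gave 6e-04 (only the groups compared), 0.032 (replicate block) and -0.31 to 0.36, PTGER2 -0.056 to 0.10, and ALOX5 -0.23 to 0.049. In the interaction PTGES gave 0.19 (totals) and -0.36 to 0.32, TBXAS1 -0.15 (thinned) and -0.037 to 0.13, and ALOX5 0.15 (totals) and -0.23 to 0.13. Depth limits PTGS1 most; the cause of each change was not tested.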

Other observations

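The further pathway genes PLA2G6, PTGER3 and ALOX15 passed in late over early unstimulated cells, with every group mean under 5 CPM, and they are named here with their values seen. PLA2G6 and PTGER3 were higher in Late CTL, at log2 fold changes of 1.33 and 1.24 (edgeR adjusted p = 0.0212 and 0.0288). ALOX15, a 15-lipoxygenase, averaged 3.22 ± 1.31 CPM in Late CTL and 0.704 ± 1.07 CPM in Early CTL (SD, n = 3 each; log2 fold change 2.19, edgeR adjusted p = 0.00962), from 8, 22 and 30 reads in Late CTL and 0, 19 and 2 in Early CTL. Early CTL library 2 thus held 19 of the 21 reads of its group. Without it the log2 fold change was 4.74 (adjusted p = 0.00011). The call was lost without Early CTL library 3 (1.67, adjusted p = 0.057) and without Late CTL library 3 (1.83, adjusted p = 0.0621). These alternatives for ALOX15 were chosen after seeing the data. In stimulated cells it averaged 3.07 ± 0.566 CPM in Late ACT and 0.129 ± 0.118 CPM in Early ACT (adjusted p = 0.000438).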
